A study of Mus musculus with 9 samples.

Results

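The T cell receptor gene segments of mouse lung tissue are described here. They were taken as every row of the deposited expression table whose gene symbol begins with Tra, Trb, Trd or Trg, is followed by the class letter v, d, j or c, and then by a digit or the end of the name. This choice gave 258 segments among 45706 rows. Of these, 190 belonged to the alpha chain, 52 to the beta chain, 11 to the delta chain and 5 to the gamma chain. The lungs came from female BALB/c mice, aged 4 to 6 weeks, all bearing a graft of the mouse mammary carcinoma line 4T1 in the right flank. On days 7 and 14 the mice were given either phosphate-buffered saline (PBS), anti-PD1, which is an antibody that blocks the T cell inhibitory receptor PD1, or nanocapsules of this antibody. Lung RNA was taken on day 21. A dose of 150 µg per mouse is stated for the nanocapsules, and it is unclear whether the free antibody had the same dose. Each group had 3 lungs, 9 in all, and no tumour-free lung was among them. The labels number the lungs without naming animals, so p-values here reflect only the spread between samples of a group, which may be technical.

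A T cell makes its receptor by cutting and joining DNA. One variable (V), where needed one diversity (D), and one joining (J) segment are brought together by the Rag1 and Rag2 recombinase, and splicing then adds a constant (C) segment. The alpha and delta chains use V and J, or V, D and J, from one shared locus, in which the delta segments lie inside the alpha segments, so that an alpha rearrangement deletes the delta genes on that chromosome. In a tissue such as lung, transcripts of these segments come from T cells in the tissue and in its blood, and the mixture of V segments reflects many T cell clones. In bulk tissue, fewer T cells and less receptor RNA per cell cannot be told apart.

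The segments lie in 3 places of the mouse genome build GRCm38. The alpha segments span chromosome 14 from 52427928 to 54224206, and the 11 delta segments lie between 53881612 and 54149294 of the same chromosome. The beta segments span chromosome 6 from 40891229 to 41558452, and the 5 gamma segments lie on chromosome 13 from 19210343 to 19342212. All 258 matched the GENCODE M21 annotation, as 170 variable, 80 joining, 4 diversity and 4 constant segments. The gamma chain is represented incompletely, by Trgv2 and 4 joining segments, because 10 further gamma segments have symbols beginning with Tcrg.

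The shortest segments were the ones without signal, so their sequences are shown first. The following lines give, from 5′ to 3′ on GRCm38, both beta diversity segments, a joining segment of each beta cluster, and the joining segments used by natural killer T cells (Traj18) and by mucosal-associated invariant T cells (Traj33). Trbd1 lies at chr6:41533201-41533212 on the plus strand and Traj18 at chr14:54200777-54200842 on the plus strand. Capitals mark the letters TTNGG, any 4 letters and GG, which cover the conserved Phe-Gly-X-Gly stretch of a joining segment except its last base. Searched on the coding strand, this pattern was found in 59 of the 80 joining segments (73.8%), and on the opposite strand in 0%.
Trbd1: gggacagggggc
Trbd2: gggactgggggggc
Trbj1-1: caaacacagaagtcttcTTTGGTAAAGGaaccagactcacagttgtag
Trbj2-7: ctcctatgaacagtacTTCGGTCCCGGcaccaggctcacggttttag
Traj18: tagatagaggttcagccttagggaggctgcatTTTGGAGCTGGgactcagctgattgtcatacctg
Traj33: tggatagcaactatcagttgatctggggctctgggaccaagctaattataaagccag
Traj33 held no match in its annotated letters.

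All 84 joining and diversity segments, Trbd1, Trbd2, Traj18 and Traj33 among them, were listed at 0 TPM in all 9 lungs. TPM is a transcript abundance corrected for length and scaled to a fixed sum per library. The annotated transcripts of these segments were 9 to 72 nucleotides (nt) long, and the shortest segment above 0 TPM had 291 nt. Of 806 other genes without any transcript above 72 nt, 5 were above 0 TPM in any lung. Among those were 37 short immunoglobulin segments, the counterparts in B cell receptors, and 0 of them had signal. Segment length moved with detection in this way, and its part in the result was not tested. Joining usage, including the choice between the beta clusters, could therefore not be measured from these values.

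Variable and constant segments carried all of the signal. Of the 170 variable segments, 128 were above 0 TPM in at least 1 lung and 27 in all 9. The annotation calls 34 variable segments pseudogenes, and 5 of these were above 0 TPM, against 123 of the 136 variable genes. All 4 constant segments, Trac, Trbc1, Trbc2 and Trdc, were above 0 TPM in every lung. In total 132 segments were detected in any lung, 31 in all 9 lungs and 11 in a single lung, and 126 were listed at 0 throughout. The lowest level above 0 was 0.116 TPM.

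The constant segments are shared by every T cell that uses a chain, so they give the level of the chain as a whole. Levels set between genes here are TPM and so are per length. Trac encodes the constant part of the alpha chain and lies at chr14:54220521-54224206. It was at 72.7, 55.8 and 103 TPM in PBS lungs, 134, 39.8 and 113 TPM in anti-PD1 lungs, and 56.5, 24.9 and 45.0 TPM in nanocapsule lungs. Nanocapsule 2 was the lowest lung, anti-PD1 1 the highest, and the 3 groups overlapped. The limma log2(TPM + 1) difference between nanocapsule and anti-PD1 lungs was -1.06 (SE 0.44, adjusted p = 0.156), and leaving out 1 lung at a time gave -1.60 to -0.73.

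Trbc2, the second of the beta constant segments, had the highest level of all segments. It was at 121, 110 and 287 TPM in PBS lungs, 255, 121 and 468 TPM in anti-PD1 lungs, and 115, 142 and 99.0 TPM in nanocapsule lungs. Its partner Trbc1 followed the same order of lungs in the first 2 groups, at 67.0, 62.3 and 158 TPM, then 144, 75.4 and 294 TPM, and it was at 65.6, 72.2 and 55.2 TPM in nanocapsule lungs. Anti-PD1 3 stood highest for both, and anti-PD1 2 lay among the nanocapsule lungs for Trbc2. The nanocapsule against anti-PD1 differences in log2(TPM + 1) were -1.19 (SE 0.46, limma adjusted p = 0.140) for Trbc1 and -1.05 (SE 0.46, limma adjusted p = 0.175) for Trbc2. They were -1.67 and -1.55 without anti-PD1 2, and -0.70 and -0.58 without anti-PD1 3.

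The share of beta constant TPM held by Trbc2 varied little between lungs, from 61.4% to 66.2%. Group means were 64.2% ± 0.339 in PBS, 62.3% ± 1.42 in anti-PD1 and 64.7% ± 1.38 in nanocapsule lungs (SD, n = 3), and an exact permutation test over the 3 groups gave p = 0.111 (adjusted p = 0.417 over 10 values). The split rests on reads that tell the copies apart. Over the first 300 bases of their transcripts the copies differed at 1 base (99.7% identity), and the first 90 bases, shown here with no base in capitals because none differs, were the same.
Trbc1: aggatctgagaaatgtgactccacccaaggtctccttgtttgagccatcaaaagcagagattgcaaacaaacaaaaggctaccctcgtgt
Trbc2: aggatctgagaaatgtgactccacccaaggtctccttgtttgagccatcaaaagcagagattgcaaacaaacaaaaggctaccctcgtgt
These are plus-strand sequences of the genes at chr6:41538218-41539881 and chr6:41546730-41548352.

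Trdc, which encodes the constant part of the delta chain, was low. It was at 1.59, 1.21 and 2.71 TPM in PBS lungs, 2.02, 1.86 and 5.06 TPM in anti-PD1 lungs, and 2.0, 1.90 and 1.24 TPM in nanocapsule lungs. Anti-PD1 3 was again the highest lung, and the groups overlapped. The nanocapsule against anti-PD1 difference was -0.48 in log2(TPM + 1) (SE 0.31, limma adjusted p = 0.322), and -0.13 without anti-PD1 3.

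Summed over the segments chosen here, the chains ranked beta, alpha, delta and gamma in every lung. The gamma sum is that of Trgv2 alone, so the last place rests on the choice by symbol. The 10 gamma segments named Tcrg summed to more than the delta segments in PBS 3, anti-PD1 1 and anti-PD1 3. The values there were 8.92, 7.87 and 24.4 TPM against 7.34, 6.35 and 17.9 TPM. In every other lung the Tcrg sum was below the delta sum. The beta chain held 64.8% to 79.8% of all segment TPM. Alpha segments summed to 180, 168 and 301 TPM in PBS lungs, 316, 112 and 307 TPM in anti-PD1 lungs, and 117, 83.2 and 116 TPM in nanocapsule lungs. All 3 nanocapsule lungs were below all 3 PBS lungs, while anti-PD1 2 lay within the nanocapsule range. Between nanocapsule and PBS the difference in log2(sum + 1) was -0.995 (SE 0.47, exact two-sided permutation p = 0.1, n = 3 lungs a group), where 0.1 is the smallest p that 3 lungs against 3 can give. Between nanocapsule and anti-PD1 it was -1.08 (SE 0.47, exact permutation p = 0.3).

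Beta segments summed to 346, 348 and 835 TPM in PBS lungs, 749, 313 and 1296 TPM in anti-PD1 lungs, and 324, 322 and 296 TPM in nanocapsule lungs. The nanocapsule lungs lay just under PBS 1 and PBS 2, without overlap, and PBS 3 was far above both. The nanocapsule against PBS difference was -0.57 in log2(sum + 1) (SE 0.60, exact permutation p = 0.1), and without PBS 3 and anti-PD1 3 it shrank to -0.15. Anti-PD1 lungs spread over the widest range, and their difference from PBS was 0.53 (SE 0.60, exact permutation p = 0.7).

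Delta and gamma segments gave small sums. Delta segments summed to 8.02, 5.0 and 7.34 TPM in PBS lungs, 6.35, 7.07 and 17.9 TPM in anti-PD1 lungs, and 7.96, 4.91 and 5.66 TPM in nanocapsule lungs. Only anti-PD1 3 stood out from the other lungs. Trgv2, a gamma variable segment and the sole gamma member above 0 TPM, reached at most 2.51 TPM and was listed at 0 in anti-PD1 2 and nanocapsule 2. The 10 gamma segments with Tcrg symbols, which are not members, summed to 3.57 to 24.4 TPM, and 7 of them were above 0 TPM in any lung.

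Over the 3 groups, exact permutation tests of the chain sums on the log2 scale gave p = 0.125 for alpha, 0.264 for beta, 0.425 for delta and 0.829 for gamma. After adjustment over the 10 values tested the lowest was 0.417, so no chain sum passed. The smallest p that this test can give is 0.00357.

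**Figure D1:**
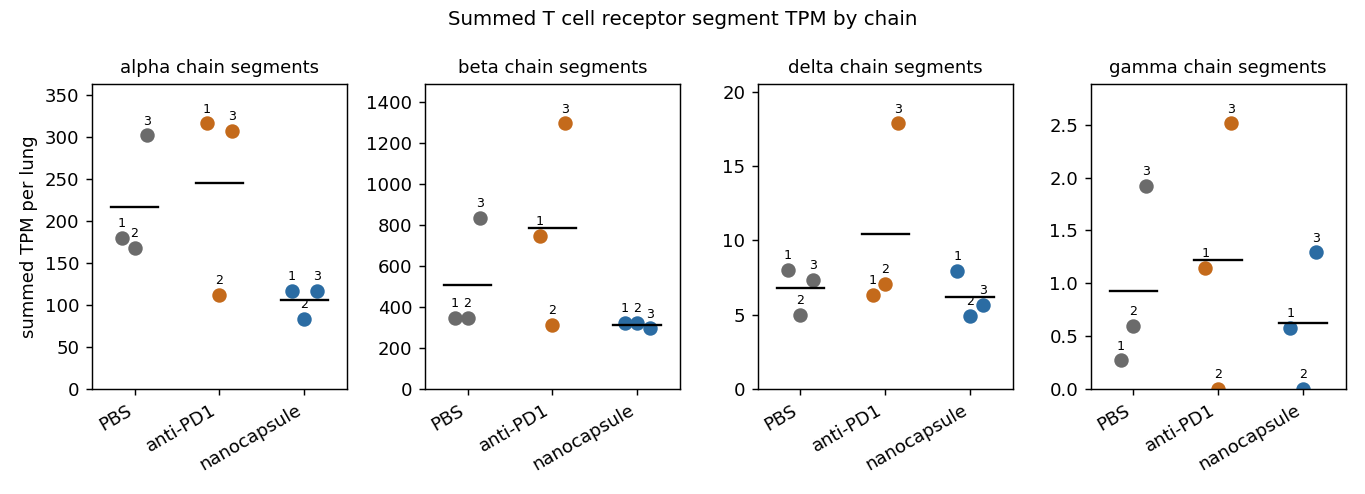
Summed TPM of the alpha, beta, delta and gamma segments, 1 panel per chain with its own linear axis from 0. Each point is a lung with its replicate number and each bar is the mean of 3 lungs. The nanocapsule lungs lie close together at 83.2 to 117 TPM for alpha and 296 to 324 TPM for beta, while the anti-PD1 lungs spread from 313 to 1296 TPM for beta.

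Fewer segments were detected in the nanocapsule lungs. The number above 0 TPM was 88, 84 and 97 in PBS lungs, 98, 74 and 101 in anti-PD1 lungs, and 70, 68 and 69 in nanocapsule lungs. Every nanocapsule lung was below every lung of the other groups, with anti-PD1 2 nearest. The mean difference was -20.7 segments from PBS (SE 7.66) and -22.0 from anti-PD1 (SE 7.66), each with an exact two-sided permutation p = 0.1. Anti-PD1 and PBS lungs differed by 1.33 segments (exact permutation p = 0.9). Over the 3 groups the exact permutation p was 0.0821 and 0.417 after adjustment over 10 values, so the number detected did not pass.

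Most of this difference lay in the alpha variable segments. In these, 63, 58 and 67 were detected in the PBS lungs, 69, 49 and 69 in anti-PD1 lungs, and 44, 43 and 44 in nanocapsule lungs. Beta variable segments numbered 17 to 23 in all 9 lungs, with 17 or 18 in nanocapsule lungs. In all 3 lungs of a group, 32 alpha variable segments were detected in PBS, 34 in anti-PD1 and 20 in nanocapsule lungs. Detection of a low gene depends on read depth, which TPM does not keep. Over the whole table, genes above 0 TPM numbered 18671 to 19296 in PBS, 19027 to 19545 in anti-PD1 and 18346 to 18797 in nanocapsule libraries, and the part of depth in the number of segments was not tested. Without PBS 3, anti-PD1 3 and nanocapsule 2, the nanocapsule lungs still had 16.5 fewer segments than PBS and 16.5 fewer than anti-PD1, as means of 2 lungs.

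**Figure D2:**
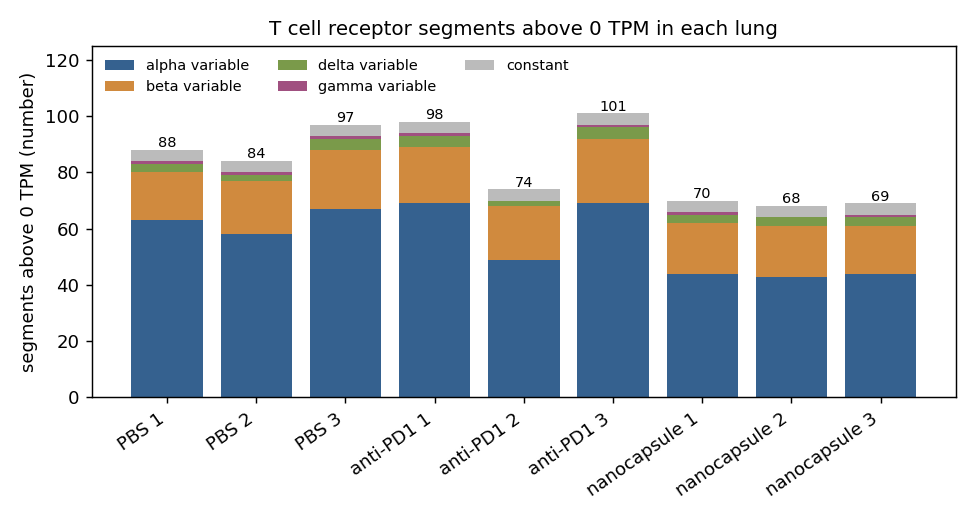
Number of T cell receptor segments above 0 TPM in each of the 9 lungs, stacked by chain and class, with the total above each bar. The nanocapsule lungs have 68 to 70 segments and the other lungs 74 to 101. The alpha variable layer holds most of the difference, and no joining or diversity segment appears.

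Evenness describes how equally the TPM of a chain is spread over its detected variable segments, and Pielou evenness is 1 when all are equal. For alpha it was 0.926, 0.933 and 0.911 in PBS lungs, 0.929, 0.925 and 0.922 in anti-PD1 lungs, and 0.947, 0.944 and 0.891 in nanocapsule lungs. For beta it was 0.862, 0.860 and 0.876, then 0.856, 0.873 and 0.898, and then 0.887, 0.930 and 0.864 in the same order. The groups overlapped for both chains. Nanocapsule 2 had the most even beta usage and nanocapsule 3 the least even alpha usage. Exact permutation tests over the 3 groups gave p = 0.986 for alpha and p = 0.418 for beta, and pairwise differences were 0.00169 to 0.00397 for alpha (SE 0.0159) and 0.00975 to 0.0277 for beta (SE 0.0193). Delta evenness, over 2 to 4 detected segments, ranged from 0.567 to 0.909 (exact permutation p = 0.193, adjusted p = 0.482).

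The largest single segment held 5.50% to 9.52% of the alpha variable TPM and 11.3% to 20.9% of the beta variable TPM of a lung. The leading beta segment was Trbv13-1 in 6 lungs, Trbv29 in anti-PD1 1 and anti-PD1 2, and Trbv20 in nanocapsule 1. The alpha leader differed more often between lungs, and it depended on how copies with the same sequence were counted. Counted singly, it was Trav8d-1 in PBS 1 and nanocapsule 2, Trav6-4 in PBS 2, Trav7-3 in PBS 3, Trav6d-6 in anti-PD1 1 and Trav6-6 in anti-PD1 2. In the last 3 lungs, anti-PD1 3, nanocapsule 1 and nanocapsule 3, it was Trav13-1, Trav7-2 and Trav9-4. With copies summed, the identical pair of Trav6-6 and Trav6d-6 led in PBS 1 (10.8 TPM, 10.1% of alpha variable TPM), anti-PD1 1 and anti-PD1 2, and the pair of Trav7d-5 and Trav7n-5 led in nanocapsule 2 at 4.51 TPM.

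Beta usage was led by a small set of segments whose order differed between lungs. The ends of the leading variable segments are shown, because the end of a V segment carries the cysteine that opens the third complementarity-determining region, the part of the receptor that touches peptide. The lines give the last 60 bases of the annotated segment on the plus strand of GRCm38, and capitals mark the last TGTGC, which holds a cysteine codon. These letters were found in the last 60 bases of 112 of 136 variable genes (82.4%), and on the opposite strand in 35.3%.
Trbv13-1: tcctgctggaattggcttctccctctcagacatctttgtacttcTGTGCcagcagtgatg
Trbv13-2: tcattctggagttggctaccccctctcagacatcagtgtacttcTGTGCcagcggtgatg
Trbv13-3: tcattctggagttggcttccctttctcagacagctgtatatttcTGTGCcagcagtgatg
Trbv29: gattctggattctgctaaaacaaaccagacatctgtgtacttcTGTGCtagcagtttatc
Trbv13-1 lies at chr6:41116007-41116468 and Trbv29 at chr6:41271394-41271881. Aligned over their length, Trbv13-2 and Trbv13-3 were 90.6% identical, and Trbv13-1 and Trbv13-2 were 81.0% identical.

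Trbv13-1 had the highest mean share of beta variable TPM, 14.0% (range 8.95% to 20.4%). Its level was 25.8, 35.9 and 54.1 TPM in PBS lungs, 42.6, 10.4 and 60.4 TPM in anti-PD1 lungs, and 16.6, 15.4 and 24.8 TPM in nanocapsule lungs. The nanocapsule lungs lay below the PBS lungs, and anti-PD1 2 was the lowest lung in both level and share.

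Trbv29 came next with a mean share of 11.4%. It was at 12.7, 13.6 and 35.8 TPM in PBS lungs, 73.1, 17.4 and 49.8 TPM in anti-PD1 lungs, and 12.1, 8.58 and 22.9 TPM in nanocapsule lungs. In anti-PD1 1 it reached 20.9% of beta variable TPM, the highest share of any beta segment in any lung. Nanocapsule against anti-PD1, its log2(TPM + 1) difference was -1.51 (SE 0.54, limma adjusted p = 0.124).

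Trbv13-2, Trbv5 and Trbv1 followed with mean shares of 9.88%, 9.36% and 9.06%. Trbv13-1, Trbv13-2 and Trbv13-3 together held 35.2% ± 4.42 of beta variable TPM in PBS, 27.99% ± 1.49 in anti-PD1 and 32.8% ± 1.67 in nanocapsule lungs (SD, n = 3). The share of Trbv20 varied widely, from 2.86% in anti-PD1 3 to 13.9% in PBS 1. Trbv1 stayed within 6.94% to 10.3%.

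**Figure D3:**
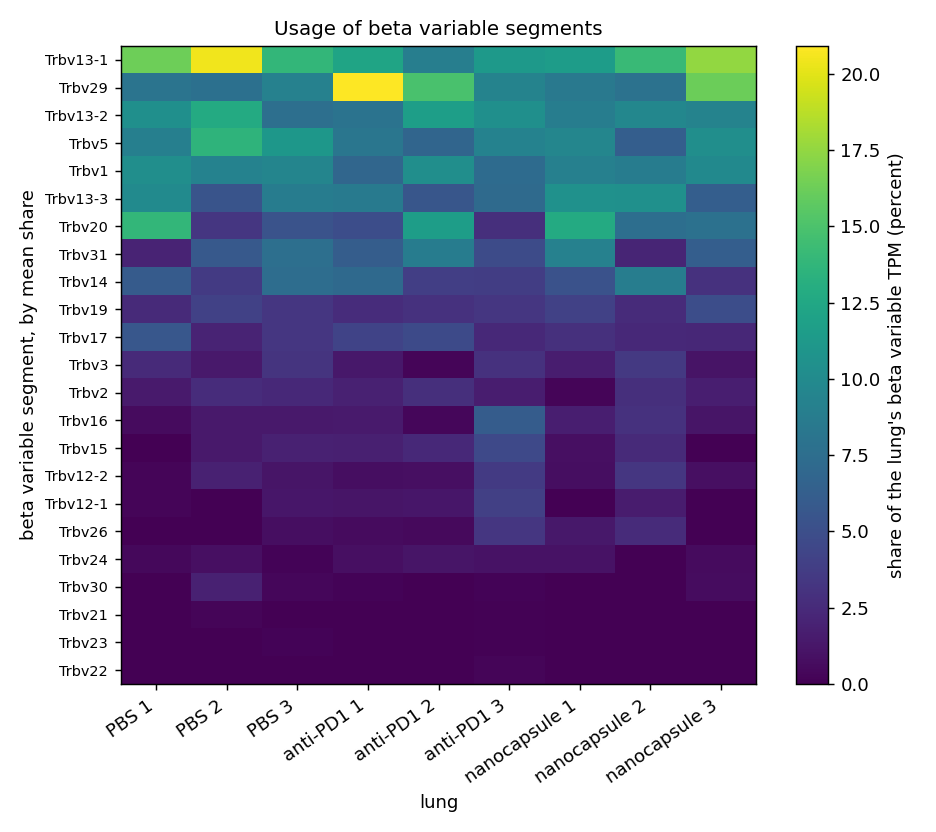
Share of beta variable TPM (colour scale, percent) for each detected beta variable segment (rows, by mean share) in each lung (columns). Trbv13-1 and Trbv29 have the highest mean shares, 14.0% and 11.4%. The rows of Trbv12-1, Trbv12-2, Trbv15, Trbv16 and Trbv26 are each brightest in anti-PD1 3 and next brightest in nanocapsule 2.

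The distance between usage profiles did not separate the groups. The Jensen-Shannon distance is 0 for identical profiles and 1 for profiles that share no segment. For beta its median was 0.256 over 9 pairs of lungs from the same group and 0.234 over 27 pairs from different groups. For alpha the medians were 0.601 and 0.601. Alpha profiles were further apart than beta profiles in every pair, at 0.491 to 0.724 against 0.168 to 0.367. The alpha distances count copies with the same sequence, described below, as separate segments, which can widen them. All such copies are alpha segments, and the distances were not computed with copies summed. The pairs share lungs and are given without a test.

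Alpha usage was spread over more segments. With every copy counted on its own, the leading variable segments by mean TPM were Trav3-3 at 4.90 TPM, Trav8d-1 at 4.80, Trav6d-6 at 3.97, Trav7-4 at 3.79 and Trav13-1 at 3.78 TPM. Trav6d-6 has the same sequence as Trav6-6, and summed the pair led with a mean of 6.86 TPM, so this order depends on how copies are counted. Trav3-3 ranged from 0.935 TPM in nanocapsule 2 to 10.7 TPM in anti-PD1 3. Summed by family, the 14 Trav7 segments held a mean of 18.2% of alpha variable TPM, the 15 Trav6 segments 13.8% and the 11 Trav9 segments 10.04%.

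Many alpha segments exist in copies, since part of the mouse alpha variable array is duplicated and copies carry the letters d or n in their names. There were 22 pairs of copies with the same or a contained sequence. In 17 the annotated transcripts were identical, so reads cannot tell the copies apart. In the other 5, one sequence contains the other, and only reads over the extra bases could tell them apart. The 44 segments of these pairs, 38 of them above 0 TPM, held 19.6% to 39.1% of alpha variable TPM in a lung. The last 90 bases of an identical pair, Trav4d-4 and Trav4n-4, and of a pair that differs at 1 base, Trav11 and Trav11d, are shown with differing bases in capitals. All 4 are on the plus strand of chromosome 14 of GRCm38, Trav4d-4 at chr14:52990866-52991389 and Trav4n-4 at chr14:53302036-53302559.
Trav4d-4: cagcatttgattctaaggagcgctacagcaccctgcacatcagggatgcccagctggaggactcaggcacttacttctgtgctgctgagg
Trav4n-4: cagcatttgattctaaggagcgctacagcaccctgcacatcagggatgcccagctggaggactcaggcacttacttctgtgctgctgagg
Trav11: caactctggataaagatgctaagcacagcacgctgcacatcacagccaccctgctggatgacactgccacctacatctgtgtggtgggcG
Trav11d: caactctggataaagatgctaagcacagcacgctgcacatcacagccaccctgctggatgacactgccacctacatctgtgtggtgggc

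The deposited values gave such copies their TPM in an all-or-equal way. In 112 cases a pair had TPM above 0 in a lung. In 75 of them 1 copy held all of it, in 37 both copies held the same amount within 0.1%, and in 0 was the split different. Trav6-6 was at 5.42, 6.18 and 0 TPM in PBS lungs, 0, 6.28 and 5.81 TPM in anti-PD1 lungs and 2.32, 0 and 0 TPM in nanocapsule lungs. Trav6d-6, with identical letters, was at 5.42, 0 and 9.32 TPM, then 15.9, 0 and 0 TPM, then 0, 3.38 and 1.71 TPM in the same order. Which copy held the signal thus changed between lungs of 1 group, and neither level is certain on its own.

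The assignment reaches into the comparisons between groups. Trav4d-4 was at 3.09, 5.67 and 2.63 TPM in PBS lungs, 1.69, 0 and 0 TPM in anti-PD1 lungs and 0, 0.774 and 0 TPM in nanocapsule lungs. Trav4n-4 was listed at 0 in all 3 PBS lungs, and it was at 0, 1.92 and 2.28 TPM in anti-PD1 lungs and 0, 0.774 and 1.56 TPM in nanocapsule lungs. For anti-PD1 against PBS the log2(TPM + 1) difference was -1.74 for Trav4d-4 (SE 0.42, limma adjusted p = 0.211) and 1.09 for Trav4n-4 (SE 0.46, limma adjusted p = 0.280). Identical sequences thus had differences of opposite sign.

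**Figure D4:**
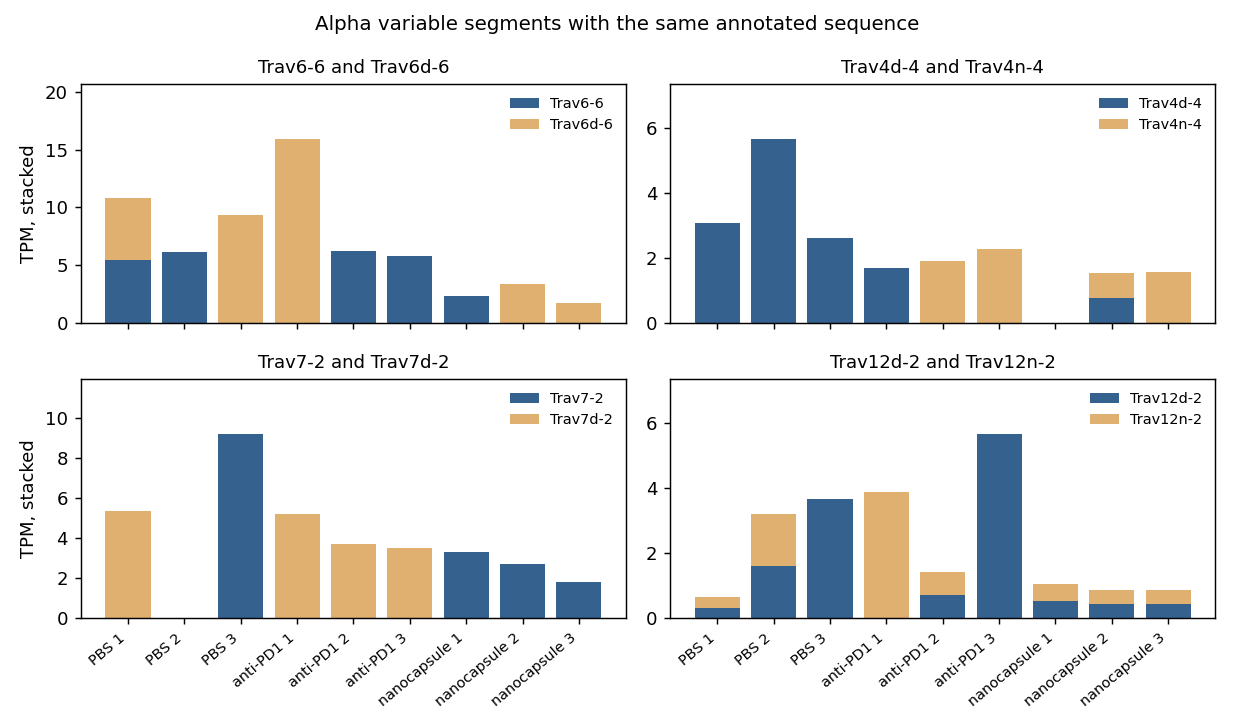
TPM of 4 pairs of alpha variable segments whose annotated sequences are the same or contained in one another, stacked by copy, in each of the 9 lungs. In each lung a pair shows either 1 colour or an equal split. Trav6-6 alone carries the signal in anti-PD1 2, at 6.28 TPM, and Trav6d-6 alone in anti-PD1 1, at 15.9 TPM.

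The variable segments used by semi-invariant T cells differed widely between lungs. Trav11, used by natural killer T cells, was above 0 TPM in 3 lungs, at 3.65 TPM in PBS 1, 1.24 TPM in anti-PD1 1 and 9.21 TPM in anti-PD1 3. Trav11d was above 0 TPM in 4 other lungs, PBS 2, anti-PD1 2, nanocapsule 2 and nanocapsule 3, at 0.709 to 4.34 TPM. No lung had both, and their sequences differ by 1 end base, so they were also summed. The pair averaged 2.57 TPM, rank 14 of 81 alpha variable segments or pairs above 0 TPM, and held 0% to 6.10% of alpha variable TPM. Trav1, used by mucosal-associated invariant T cells, was above 0 TPM in every lung except nanocapsule 1, with up to 3.30 TPM in anti-PD1 3. Their joining partners Traj18 and Traj33 were at 0, so these V segments cannot be assigned to those cells.

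Among delta variable segments, Trdv2-2 had the highest mean, 3.09 TPM. It was at 4.70, 0.506 and 2.81 TPM in PBS lungs, 1.99, 3.52 and 8.64 TPM in anti-PD1 lungs and 4.01, 0.546 and 1.11 TPM in nanocapsule lungs. Trdv4, Trdv1, Trdv5 and Trdv2-1 had means of 0.850, 0.812, 0.700 and 0.168 TPM, each with lungs at 0, and Trdv3 was at 0 in all lungs. The groups overlapped for Trdv2-2.

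Trbv12-1, Trbv12-2, Trbv15, Trbv16 and Trbv26 were looked at as a set. BALB/c mice carry endogenous mouse mammary tumour viruses whose superantigens bind the beta chains made from these V segments, and T cells that use them are known to be deleted during maturation in the thymus. Low usage among mature T cells is therefore the background for this strain. The last 60 bases of the 5 segments are shown with the last TGTGC in capitals, on the plus strand of GRCm38, Trbv26 at chr6:41227505-41227993 and Trbv16 at chr6:41151740-41152230.
Trbv26: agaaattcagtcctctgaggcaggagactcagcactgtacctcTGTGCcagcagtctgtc
Trbv12-1: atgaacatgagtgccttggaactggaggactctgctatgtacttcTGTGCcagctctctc
Trbv12-2: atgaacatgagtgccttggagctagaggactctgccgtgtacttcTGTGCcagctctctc
Trbv15: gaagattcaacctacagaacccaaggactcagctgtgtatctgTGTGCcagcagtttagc
Trbv16: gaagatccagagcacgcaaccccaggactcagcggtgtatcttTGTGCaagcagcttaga

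Together these 5 segments held 1.23%, 4.73% and 6.56% of beta variable TPM in PBS lungs, 5.83%, 5.397% and 21.5% in anti-PD1 lungs, and 4.67%, 13.0% and 2.03% in nanocapsule lungs. Anti-PD1 3 and nanocapsule 2 stood above the other 7 lungs, which stayed at or under 6.56%. The groups overlapped, and an exact permutation test over the 3 groups gave p = 0.457 (adjusted p = 0.571 over 10 values). Trbv16 was the largest of the 5 in anti-PD1 3, at 32.7 TPM, against 0.456 to 5.59 TPM in the other 8 lungs. Trbv26 was at 17.7 TPM there and at 0 to 2.95 TPM in the others. Trbv15, Trbv12-1 and Trbv12-2 were at 24.6, 21.2 and 18.9 TPM in anti-PD1 3, and in the other lungs they reached at most 7.49, 4.97 and 4.61 TPM, all in PBS 3.

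Genes of V(D)J recombination varied between the same lungs. Rag1, the recombinase, and Dntt, the terminal transferase that adds bases at the joints, summed to 0.874, 1.07 and 22.7 TPM in PBS lungs, 7.95, 2.10 and 75.1 TPM in anti-PD1 lungs, and 1.67, 16.8 and 1.95 TPM in nanocapsule lungs. The lung with the highest sum in each group, PBS 3, anti-PD1 3 and nanocapsule 2, was also the lung with the highest share of the 5 segments. The 7 recombination and immature thymocyte genes reported here, Rag1, Rag2, Dntt, Ptcra, Arpp21, Ccr9 and Cd8b1, summed to 17.99 to 89.4 TPM in PBS, 19.5 to 206 TPM in anti-PD1 and 17.6 to 47.7 TPM in nanocapsule lungs. Cd8b1, also a T cell co-receptor gene, held the largest part in every lung, at 14.8 to 51.9, 15.4 to 90.9 and 13.5 to 20.8 TPM in that order. Ptcra reached at most 1.01 TPM. Of 5 thymic epithelium genes, whose sum was 4.62 to 9.71 TPM in all lungs, Foxn1 was at 0 in all 9 lungs and Psmb11 reached at most 0.120 TPM. Prss16 was at 3.25 to 7.02 TPM, Ccl25 at 0.445 to 2.69 TPM and Tbata at 0 to 1.22 TPM. Prss16, Ccl25 and the sum were highest in nanocapsule 2. The part of immature thymocyte transcripts in the segment values was not tested.

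**Figure D5:**
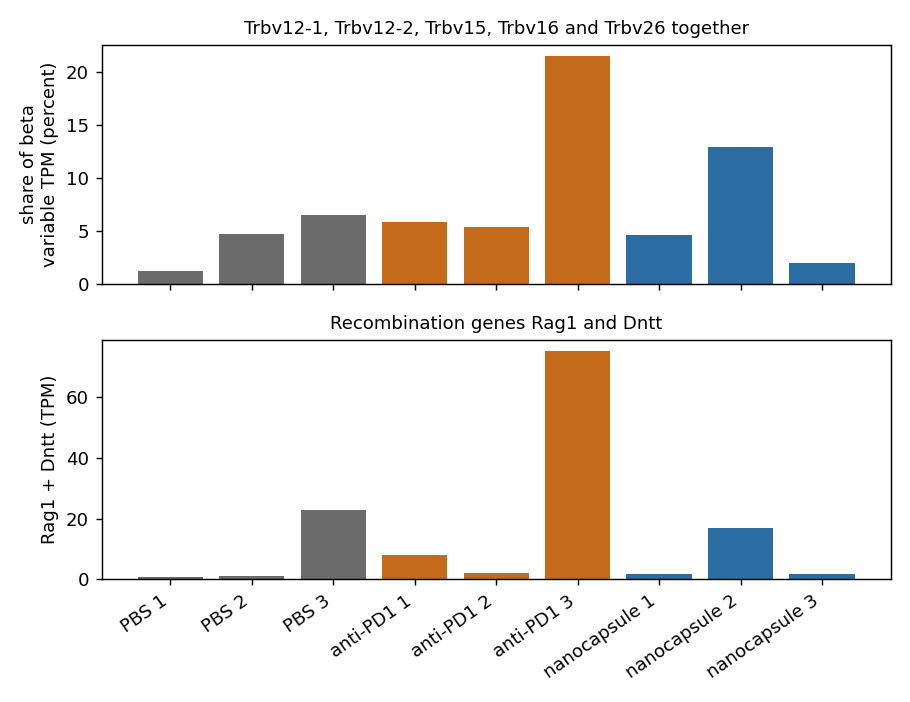
Upper panel, share of beta variable TPM (percent) in Trbv12-1, Trbv12-2, Trbv15, Trbv16 and Trbv26 together for each lung. Lower panel, summed TPM of Rag1 and Dntt in the same lungs. Anti-PD1 3 has the highest bar in both panels, at 21.5% and 75.1 TPM, followed in the upper panel by nanocapsule 2 at 13.0%.

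The comparisons between groups were made gene by gene with limma on log2(TPM + 1). Of the 258 segments, 76 reached 1 TPM in at least 3 lungs and were tested among 13248 genes, 50 alpha, 21 beta, 4 delta and 1 gamma segment. Some passed this filter with the help of a single group: 18 would have failed without the PBS lungs, 21 without the anti-PD1 lungs and 9 without the nanocapsule lungs. The counts of higher and lower segments are therefore descriptions of these 76 only. The groups are compared in pairs, and each group serves in 2 of the comparisons.

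The first comparison asked how lungs given the free antibody differed from PBS lungs. No segment was called at an adjusted p under 0.05, where 0.00755% of all tested genes were called. At an unadjusted p under 0.05, 4 segments were higher and 3 lower, 7 of 76, beside 8.48% of all genes higher and 8.06% lower, so neither count was above that background with all lungs in the fit. Of the 76, 51 had higher and 25 lower means, with a median log2 difference of 0.20 against 0.04 over all genes. The direction changed with single lungs: the median over the segments tested was -0.08 without anti-PD1 3, and 0.20 (42 higher, 17 lower) without both PBS 3 and anti-PD1 3. Without anti-PD1 2 the segments higher at an unadjusted p under 0.05 numbered 13 of 71 (18.3%, beside 9.27% of all genes), and without PBS 3 they numbered 9 of 68 (13.2%, beside 11.4%).

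The 5 segments with the smallest p in this comparison were Trav4d-4 and Trav7d-2, both of them copies that share their sequence with another segment, and Trav13-4-dv7, Trav16d-dv11 and Trbv24. Trav13-4-dv7, which can join to alpha or delta segments, was at 2.57, 1.66 and 1.02 TPM under PBS and at 0.872, 0 and 0 TPM under anti-PD1 (log2 difference -1.12, SE 0.30, limma adjusted p = 0.211). Trav16d-dv11, also shared by alpha and delta, was at 1.34, 0 and 2.65 TPM under PBS and at 3.48, 2.81 and 3.52 TPM under anti-PD1. The lungs of the 2 groups did not overlap for either of these segments. Trav13-4-dv7 reached 1 TPM in the 3 PBS lungs alone. The filter therefore fixed both its direction and its lack of overlap, here and against nanocapsule lungs. How many of all genes did not overlap was not counted. Trav4d-4 would have failed the filter without the PBS lungs, and Trav16d-dv11, Trav7d-2 and Trbv24 without the anti-PD1 lungs. Trbv24, annotated as a pseudogene, had group means of 0.970 ± 0.465 and 3.33 ± 2.17 TPM (SD, n = 3; limma adjusted p = 0.264).

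The second comparison set the nanocapsule lungs against PBS. No segment was called, where 0.00755% of all genes were called. At an unadjusted p under 0.05, 0 segments were higher and 11 lower, 11 of 76, beside 1.22% of all genes higher and 8.92% lower. The lower count was 17 of 71 without anti-PD1 2 (23.9%, beside 9.85% of all genes). Without nanocapsule 3 it was 6 of 73 (8.22%, beside 14.8% of all genes), which is below that background. Of the 76, 9 had higher and 67 lower means, with a median log2 difference of -0.56 against -0.11 over all genes. Segments with higher means made up 11.8% of those tested, and 28.8% of all genes had higher means. Without PBS 3 and anti-PD1 3 the median was -0.32, and without nanocapsule 2 as well it was -0.36.

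Trav5-1 came closest. It is an alpha variable gene at chr14:52622566-52623082, and the end of its 343 nt transcript is shown because it was the segment with the smallest p in both nanocapsule comparisons. Its last 60 bases hold no TGTGC.
Trav5-1: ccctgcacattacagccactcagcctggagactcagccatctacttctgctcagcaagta
Trav5-1 was at 1.46, 2.34 and 2.89 TPM in PBS lungs, 1.85, 2.11 and 1.67 TPM in anti-PD1 lungs, and was listed at 0 in all 3 nanocapsule lungs. The groups with signal overlapped each other and stood apart from the nanocapsule lungs. Nanocapsule against PBS, the log2(TPM + 1) difference was -1.67 (SE 0.20, limma adjusted p = 0.0502), which just missed the threshold. No fold is given because a group was at 0, and the size of this difference is set by the pseudocount. The other segments with the smallest p were Trav13-4-dv7, Trav4d-4, Trav9-1 and Trav12-3, with differences of -1.42, -1.94, -1.43 and -0.83 and limma adjusted p from 0.320 to 0.423. Trav13-4-dv7, Trav4d-4 and Trav9-1 would have failed the filter without the PBS lungs and did not reach 1 TPM in any nanocapsule lung. The filter therefore bears on their direction.

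The third comparison set nanocapsules against the free antibody. One segment, 1 of 76, was called, where 0.106% of all genes were called. At an unadjusted p under 0.05, 1 segment was higher and 20 lower, beside 6.69% of all genes higher and 21.0% lower. The lower segments made up 26.3% of those tested. Without anti-PD1 2 they numbered 40 of 71 (56.3%, beside 24.6% of all genes), and without anti-PD1 3 they numbered 10 of 67 (14.9%, beside 11.9%). Of the 76, 8 had higher and 68 lower means, with a median log2 difference of -0.83 against -0.17 over all genes. The median was -1.25 without anti-PD1 2 and -0.53 without anti-PD1 3. Median-of-ratios scaling moved the median of all genes to -0.05 and that of the segments to -0.77.

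The called segment was Trav5-1, which was lower in the nanocapsule lungs (log2 difference -1.52, SE 0.20, limma adjusted p = 0.0393). Its 3 nanocapsule values of 0 add nothing to the spread pooled over the 3 groups, from which this SE and that against PBS are taken. The call of Trav5-1 was lost in each of the 6 fits that left out 1 anti-PD1 or 1 nanocapsule lung, with limma adjusted p from 0.0670 to 0.163. The next segments were Trav16d-dv11 (-1.81, SE 0.42, limma adjusted p = 0.0715), Trav7d-2, Trav19 and Trav6-1. Trav16d-dv11 was at 0, 0.780 and 0 TPM in nanocapsule lungs, below all 3 anti-PD1 lungs. Trav19 was at 1.45, 0.677 and 3.16 TPM in anti-PD1 lungs and at 0, 0.395 and 0 TPM in nanocapsule lungs (limma adjusted p = 0.0818). These segments were not called. Trav6-1 was listed at 0 in all 3 nanocapsule lungs and was at 3.23, 1.47 and 0.876 TPM in anti-PD1 lungs (limma adjusted p = 0.0914). Trav19 and Trav6-1 reached 1 TPM in 3 lungs each, none of them a nanocapsule lung, so the filter bears on their direction too. The same holds for Trav16d-dv11 and Trav7d-2, which reached 1 TPM in no nanocapsule lung and would have failed without the anti-PD1 lungs.

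Trav7d-2 was at 5.21, 3.71 and 3.53 TPM in anti-PD1 lungs and listed at 0 in all 3 nanocapsule lungs. Its near copy Trav7-2, whose 336 nt are contained in the 337 nt of Trav7d-2, was at 0 in all 3 anti-PD1 lungs and at 3.32, 2.71 and 1.83 TPM in nanocapsule lungs. Taken alone, Trav7d-2 had a log2(TPM + 1) difference of -2.35 (SE 0.59, limma adjusted p = 0.0745), while the pair summed to 3.53 to 5.21 TPM in anti-PD1 lungs and to 1.83 to 3.32 TPM in nanocapsule lungs.

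The genes that work with the receptor were read in the same fit. The T cell receptor complex and its co-receptors, Cd3d, Cd3e, Cd3g, Cd247, Cd4, Cd8a and Cd8b1, had higher means in anti-PD1 than in PBS lungs in 7 of 7 cases, and lower means in nanocapsule lungs in 7 of 7 cases against each other group. None of the 7 was called by limma in any comparison, and 0, 0 and 4 had an unadjusted p under 0.05 in the order of the comparisons above. The 4 were Cd247, Cd3e, Cd3g and Cd4, all lower, where 21.0% of all genes were lower at that p and 70.8% had lower means. Against PBS, 71.2% of all genes had lower means in nanocapsule lungs, and 56.9% had higher means in anti-PD1 lungs. Cd3e, a chain of the CD3 complex that carries the receptor signal, was at 40.1, 34.0 and 69.5 TPM in PBS lungs, 72.4, 34.1 and 80.0 TPM in anti-PD1 lungs and 33.2, 26.9 and 31.6 TPM in nanocapsule lungs. As for the constant segments, PBS 3, anti-PD1 1 and anti-PD1 3 were the high lungs. For nanocapsule against anti-PD1 the log2(TPM + 1) differences were -0.92 for Cd3e, -1.14 for Cd4 and -1.01 for Cd8a, with limma adjusted p of 0.120, 0.120 and 0.301.

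Of 36 genes of receptor signalling, 19 had higher and 17 lower means in anti-PD1 than in PBS lungs. In the nanocapsule lungs 35 had lower means than in PBS and 27 lower means than in anti-PD1 lungs. Limma called 0 of the 36 in each comparison. At an unadjusted p under 0.05, 0 were higher and 6 lower in anti-PD1 than in PBS lungs, Bcl10, Lcp2, Nfatc1, Ptpn6, Ptprc and Vav1, where 8.06% of all genes were lower. Nanocapsule against PBS, 0 were higher and 12 lower, where 8.92% of all genes were lower. Nanocapsule against anti-PD1, 1 was higher and 14 lower, where 21.0% of all genes were lower. Cd2, an adhesion receptor of lymphocytes, came closest (nanocapsule against anti-PD1 -0.75, SE 0.14, limma adjusted p = 0.0527). Its levels were 133, 102 and 139 TPM in PBS lungs, 152, 146 and 155 TPM in anti-PD1 lungs and 85.2, 78.9 and 107 TPM in nanocapsule lungs.

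Other cell types moved beside the segments. The summed TPM of 6 B cell genes was 297 to 577 in PBS, 312 to 532 in anti-PD1 and 176 to 250 in nanocapsule lungs. The summed TPM of 8 natural killer cell genes was 27.6 to 36.9, 35.2 to 42.8 and 21.8 to 28.2 in the same order, with Klra8 at 0 in all lungs. Neutrophil transcripts took a large part of each library, with S100a8 and S100a9 at 12.1% to 16.7%, 10.3% to 12.0% and 15.5% to 17.5% of TPM in that order. After TPM were renormalized without S100a8, S100a9, mitochondrial, haemoglobin and immunoglobulin genes, the median segment difference was -0.61 for nanocapsule against PBS and -0.83 for nanocapsule against anti-PD1. Lung epithelium and endothelium genes had higher means in anti-PD1 than in PBS lungs in 7 of 8 cases, beside 56.9% of all genes. The median log2 difference of the 8 was 1.44, and 6 were higher and 0 lower at an unadjusted p under 0.05. At that p, 8.48% of all genes were higher and 8.06% lower. Against anti-PD1 lungs, 7 of the 8 had lower means in nanocapsule lungs (median -0.71), beside 70.8% of all genes. At that p 3 were lower and 1 higher, beside 21.0% and 6.69% of all genes. None of the 8 was called. Their summed TPM was 3094 to 7925, 5014 to 13101 and 3285 to 11933 in the group order used above. The part of these cell types in the segment values was not tested. Of 7 gamma-delta T cell genes, Blk, a kinase that B cells also express, held most of the sum, at 14.1 to 17.7, 11.4 to 19.5 and 7.86 to 9.51 TPM. The other 6, Trdc among them, summed to 2.84 to 6.70, 5.62 to 12.6 and 3.62 to 4.46 TPM, and the nanocapsule lungs lay within the PBS range.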

How the data were processed

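Poly(A)-selected RNA of 9 lungs was sequenced by the submitters, per the labels' protocols. The authors deposited gene-level TPM in a table whose name mentions salmon. The submitters' processing notes name DESeq2 and GRCm38 without roles or versions. No annotation release is given in the sources used here. Read depth is unknown, since it cannot be read from TPM, and no count test was run. All columns of the table belonged to a sample.

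Members, gene lists and tests were chosen with earlier results of these data known. Positions and sequences came from GENCODE M21 on GRCm38, and all 258 segments matched by gene ID. The filter kept 13248 genes that reached 1 TPM in 3 or more lungs. Their log2(TPM + 1) values were modelled by limma 3.58.1 (R 4.3.3), with a variance trend over expression and 1 spread for the 3 groups (residual df 6). Tests were two-sided, with p-values Benjamini-Hochberg adjusted over all tested genes, and called at an adjusted p under 0.05. On simulated data for nanocapsule against anti-PD1, over 13248 genes, the fit called 76% of genes changed 2-fold, 94% of those changed 4-fold, and 16 unchanged genes. The changed genes were picked at random from all tested genes, with normally distributed noise drawn separately for each. These shares therefore do not give the recovery for segments with values at 0. Chain sums, on the log2(sum + 1) scale, segments detected, evenness and shares were compared by exact permutation over lungs, adjusted over 10 values for the 3-group test. The SE of these pairwise differences pools the spread of the 3 groups. The named segments were the constant segments, the 5 variable segments highest in mean TPM in each chain, those called or with the 5 smallest p in a comparison, the 5 superantigen-related segments, those of semi-invariant T cells and the beta diversity segments. Pathway lists were given by counts, and 1 gene of the recombination list is not reported here. Alternatives covered pseudocounts, filters, scalings, the variance trend, a replicate block, leaving out libraries, other evenness measures and, added after the data were seen, summing identical segments, summing families and leaving out the 3 lungs highest in Rag1 and Dntt together. The planned share of beta joining TPM could not be computed because every joining segment was at 0.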

Additional observations from a re-analysis of the deposited data

How the results depend on the processing

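Directions of the differences in segments detected and in alpha and beta sums between nanocapsule lungs and either other group were kept under every alternative run. TPM keep no depth, which limits what a value of 0 says. No value compared by permutation over lungs could reach p under 0.05 between 2 groups of 3. Across leaving out 1 library at a time, differences in the number of segments ranged from -3.67 to 9.83 for anti-PD1 against PBS, -23.5 to -17.0 for nanocapsule against PBS and -30.5 to -17.0 for nanocapsule against anti-PD1. With PBS 3 and anti-PD1 3 left out, with or without nanocapsule 2, the first of these was 0.

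For nanocapsule against PBS, Trav5-1 was the sole segment called (1 segment) in several alternatives, at limma adjusted p from 0.00748 to 0.0499. These were pseudocount 0.1 or 0.5, a filter of 0.5 TPM, median-of-ratios scaling, no trend and identical segments summed. Another was renormalizing without S100a8, S100a9, mitochondrial, haemoglobin and immunoglobulin genes. In these fits 0.0135% to 0.0302% of all genes were called. After that renormalizing, 1 of 91 segments (1.10%) was called for nanocapsule against anti-PD1, where 0.983% of all genes were called. Against anti-PD1, 0 segments were called without a filter (lowest limma adjusted p = 0.0748), without PBS 3 and anti-PD1 3 (0.103) and also without nanocapsule 2 (0.311). The first tested more genes and the others fewer lungs. Leaving out 1 library gave 0 to 1 called segments for anti-PD1 against PBS, 0 to 1 for nanocapsule against PBS and 0 to 4 for nanocapsule against anti-PD1. The 4 came without PBS 2, as 5.63% of the segments tested, where 7.29% of all genes were called. Without PBS 1, Trav7d-2 was called for anti-PD1 against PBS (limma adjusted p = 0.0118). Its level in PBS 3 was 0 TPM, where its near copy Trav7-2 was at 9.22 TPM. In the same fit Trav5-1 was called for nanocapsule against PBS (limma adjusted p = 0.0271). Each was 1.47% of the segments tested, where 0.0228% of all genes were called.

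With the replicate block, 0, 0 and 5 segments were called in the 3 comparisons, among them Trac (limma adjusted p = 0.0405). The 5 were 6.58% of the segments tested, where 8.27% of all genes were called. Correlations between the deviations of same-numbered lungs ran from -0.182 to 0.279. They were 0.0642 to 0.279 for anti-PD1 against PBS and -0.182 to 0.0353 for nanocapsule against anti-PD1. With 3 lungs a group they cannot decide whether the numbers pair the samples.

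Small differences changed sign, and the cause was not tested. Without PBS 3, anti-PD1 3 and nanocapsule 2, the delta sum difference of nanocapsule lungs became 0.0705 from PBS and 0.00419 from anti-PD1, and the gamma sum difference 0.42 and 0.38 (0.111 and 0.0675 with nanocapsule 2 kept). Alpha evenness differences for anti-PD1 against PBS were -0.00101 over all segments of the table, -0.00864 by Simpson evenness and -0.00212 without those lungs. For nanocapsule against PBS they were -0.0651 over all segments, -0.00416 by families, -0.00215 without PBS 3 and anti-PD1 3 and -0.0105 also without nanocapsule 2. For nanocapsule against anti-PD1 they were -0.0641, -0.0189, -2.75e-05 and -0.00834 in that order. Beta evenness, nanocapsule against anti-PD1, was -0.0238 over all segments and -0.00151 by families. The superantigen-related share differed by 0.943 percentage points between nanocapsule and anti-PD1 without PBS 3 and anti-PD1 3, and the Trbc2 share by -0.230 between nanocapsule and PBS without the 3 lungs. Nanocapsule against PBS, Trbc2 was at 0.02 without PBS 3 and anti-PD1 3, and Trdc at 0.17 there, 0.12 also without nanocapsule 2 and 0.0391 under median-of-ratios scaling.

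Leaving out 1 library gave ranges that crossed 0 for anti-PD1 against PBS in the alpha sum (-0.17 to 0.58), the gamma sum (-0.30 to 0.60), alpha evenness (-0.00384 to 0.00725) and beta evenness (-0.00146 to 0.0196). For nanocapsule against PBS they were -0.295 to 0.0104 for the delta sum, -0.52 to 0.11 for the gamma sum, -0.00600 to 0.0222 for alpha evenness, -0.822 to 4.64 points for the superantigen-related share and -0.341 to 0.977 points for the Trbc2 share. For nanocapsule against anti-PD1 they were -0.839 to 0.0675 for the gamma sum, -0.00827 to 0.0200 for alpha evenness, -0.000451 to 0.0327 for beta evenness and -7.56 to 0.943 points for the superantigen-related share. Over single segments the ranges were -0.15 to 0.71 for Trac (anti-PD1 against PBS), -0.67 to 0.02 for Trbc2 and -0.20 to 0.17 for Trdc (nanocapsule against PBS).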
